A study of Gallus gallus with 60 samples.

Results

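MicroRNA genes made up 454 of the 20399 rows of the deposited expression table. A row was taken as a microRNA gene when the first probe set of the row had exactly 1 gene symbol in the platform annotation and that symbol began with MIR and a number or with MIRLET7. Each of the 454 rows held 1 probe set, and together they carried 430 different symbols. The mean of 235 of these rows, with 215 symbols, reached the limit for testing of 5.08 on the log2 scale, the 20th percentile of all values, and the others lay below it.

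The values came from the cerebrum of 60 laying hens, 1 array per hen, as background-corrected and quantile-normalised signals on the log2 scale. The layer lines were Lohmann Selected Leghorn (LSL), a white layer, and Lohmann Brown (LB), a brown layer, with 30 hens each. All hens were 65 to 68 weeks old and were kept in a small group housing system in groups of 36 or 54 hens. There were 16 LSL and 14 LB hens from groups of 36, and 14 LSL and 16 LB hens from groups of 54. The hens were commercial layers without a treatment. By the study's methods they were picked as stressed or unstressed birds, judged by their behaviour during handling, their plumage and their skin lesions. The sample titles do not give this status. In the study the total plumage score was lower in LSL than in LB, and the part of this choice in the line differences was not tested.

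MicroRNAs are short RNAs that bind partly complementary sites in messenger RNAs and lower their translation or stability. They are cut out of longer primary transcripts, first in the nucleus by DROSHA with its partner DGCR8 and then in the cytoplasm by DICER1, and are loaded onto Argonaute proteins. Many microRNA genes lie inside introns of protein-coding genes, and several are known for one tissue, such as miR-9 and miR-124 for nerve cells and their precursors. A row of this array reads labelled total RNA at the probes of the microRNA gene. Primary transcript, precursor, transcript of a gene around it and mature microRNA are not told apart. By the study's methods the RNA was extracted with the RNeasy Lipid Tissue Mini Kit and labelled with the Ambion WT Expression Kit. How much short RNA these steps kept was not tested, so a signal is not taken as a level of mature microRNA. Levels of microRNA rows were therefore compared between hens within a row. Where signals of different rows are printed side by side, they are not read as differences in expression between the genes.

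Signals of marker genes were read beside the tissue label, which they do not test. The 6 rows of nerve cell markers had mean signals between 9.01 and 12.19 in the lines, and myelin basic protein (MBP) stood at 12.22 in LSL. Genes listed here as markers of other tissues were not all low, and whether each is limited to its tissue was not tested. The genes listed for liver, APOA1 and ALB, stood at 9.02 and 5.43 in LSL. A row of PVALB, listed for cerebellum and hindbrain, stood at 11.14 in LSL, and its other row was below the limit. Between the lines, 2 of 6 nerve cell markers (SYT1 and GAD2) were lower in LSL, the only tested oligodendrocyte marker (MBP) and 1 of 2 choroid plexus markers (KL) were higher, 1 of 4 cerebellum and hindbrain markers (CBLN1) was lower, and none of 2 forebrain, 2 astrocyte, 2 microglia, 3 red blood cell, 4 vessel and 2 liver markers passed, where 22.7% of all tested rows did. GAD2 and MBP did not pass once hens were paired by number (adjusted P-values 0.0713 and 0.0697). The mean over the 6 nerve cell markers ran from 10.53 to 10.81 over LSL hens and from 10.53 to 10.87 over LB hens. For the 2 choroid plexus markers it ran from 6.75 to 7.53 and from 6.55 to 7.41. The part of these markers in the microRNA differences was not tested. With the mean of each line and group size removed, the arrays were cut at the largest gap on the first principal component. This used the tested rows and gave sets of 42 and 18, which no label names. The larger set held 20 LSL and 22 LB hens and the smaller 10 LSL and 8 LB hens. Removing the means takes the lines out of this component, so their balance over the sets is not a result. The line differences were also fitted within these sets, and the results are given after the single rows.

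Between the layer lines, 34 of the 235 tested microRNA rows passed the threshold (limma, Benjamini-Hochberg adjusted P-value under 0.05 over 16332 tested rows), which is 14.5%. Of all tested rows 22.7% passed, and of the 2490 tested rows that also held 1 probe set 15.5% passed. Thus the share among microRNA rows was close to that of all rows with 1 probe set, which include the microRNA rows themselves. In LSL 18 microRNA rows (7.66%) were higher and 16 rows (6.81%) were lower, against 7.59% and 7.91% of the rows with 1 probe set. The differences were small. The median over the 34 rows was 1.2-fold, 17 rows differed by less than 1.2-fold, 5 rows by at least 1.5-fold and 1 row, MIR9-2, by at least 2-fold. An at least 2-fold difference was found for 0.426% of the microRNA rows, for 0.214% of all tested rows and for 0.602% of those with 1 probe set. In none of the 34 rows were the LSL and LB hens fully apart. The share of all tested rows with the lines fully apart is not given here, so this only describes the 34 rows. Since whole tissue was measured, fewer cells that express a microRNA gene and less RNA per cell cannot be told apart. Whether the lines differ in sequence at the probes of a row, which could also change its signal, was not tested.

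MIR9-2, one of the genes for miR-9, which is known from vertebrate brains for the timing of neurogenesis, had the largest difference. In LSL hens its signal ran from 5.09 to 6.51 with a median of 5.66, and in LB hens from 5.88 to 7.55 with a median of 6.93. Only the ranges between 5.88 and 6.51 overlapped. Of the 30 LB hens 27 lay above the highest LSL hen, and 21 of the 30 LSL hens lay below the lowest LB hen. The log2 difference of LSL to LB was -1.29 (standard error 0.0864, adjusted P-value 3.39e-19), a 2.45-fold lower signal in LSL. It was -1.36 in the larger and -1.04 in the smaller set of arrays, and -1.28 in groups of 36 and -1.29 in groups of 54 hens. The row of the second miR-9 gene, MIR9-1, was below the limit, with means of 2.56 in LSL and 2.58 in LB.

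**Figure D1:**
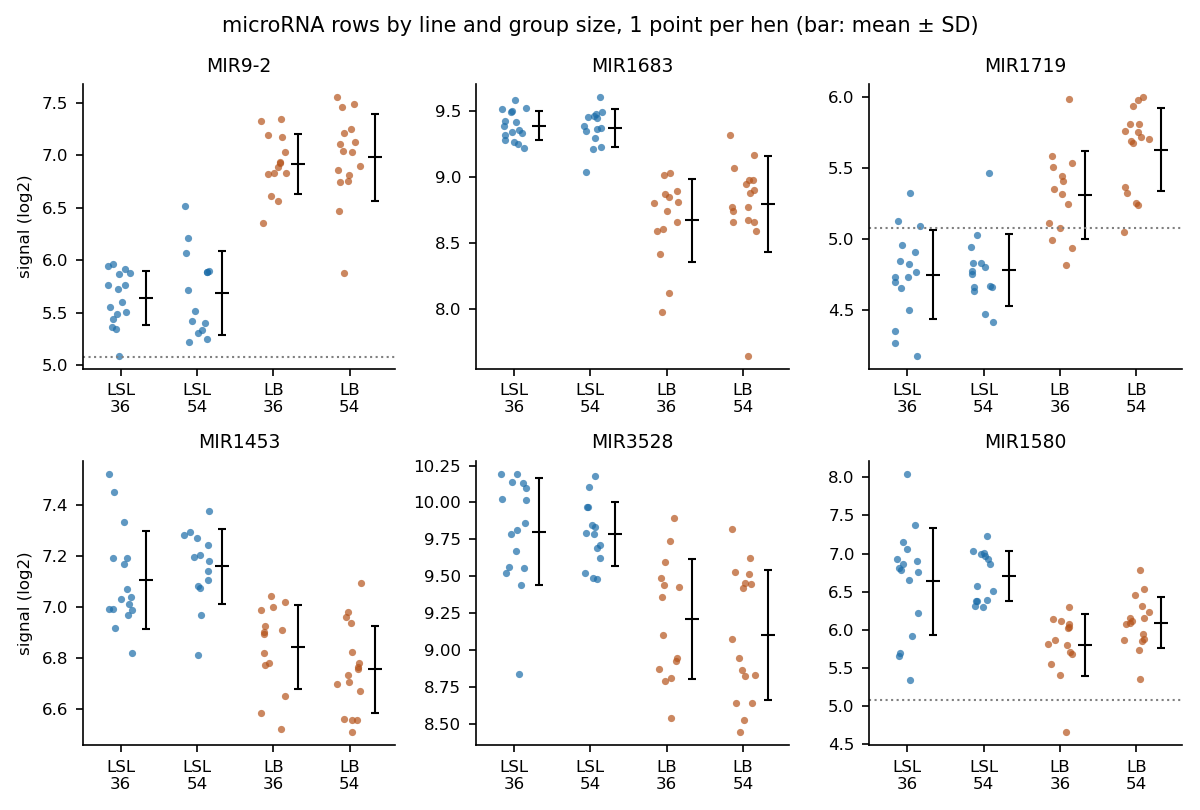
Signals (log2, vertical axes differ) of 6 microRNA rows, 1 point per hen, by layer line and group size. The black bars give mean ± SD of each group, and the dotted line marks the limit of 5.08 where it falls in the panel. For MIR9-2 the LSL hens sit between 5.09 and 6.51 and the LB hens between 5.88 and 7.55, with the same order of the lines in both group sizes.

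Among the microRNA families listed here as neural, which are not limited to nerve cells, 12 of 30 rows were tested. In LSL 2 were lower (MIR9-2 and MIR137) and none was higher, where 15.5% of rows with 1 probe set passed. The median log2 difference of the 12 rows was -0.05. MIR137, which in mammals is expressed in neurons and acts on their maturation, had values between 8.08 and 9.22 (median 8.75) in LSL and between 8.47 and 9.66 (median 8.98) in LB. The lines overlapped over most of this range, with a log2 difference of -0.30 (standard error 0.0768, adjusted P-value 0.0019). The 10 rows that did not pass included both tested genes of miR-124, an abundant microRNA of nerve cells in mammals: MIR124A differed by 0.09 (standard error 0.0916) and MIR124A-2 by 0.18 (standard error 0.0766, adjusted P-value 0.0931). MIR181B-1 differed by -0.26 (standard error 0.111, adjusted P-value 0.0863). MIR125B, MIR128-1, MIR138-1, MIR153, MIR181A-1, MIR221 and MIR7-2 had log2 differences between -0.09 and 0.04.

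The next rows by P-value carry numbers given to microRNAs that were found by sequencing small RNAs of the chicken, and no role is stated for them here. MIR1683 was higher in LSL, with values from 9.04 to 9.61 (median 9.38) against 7.64 to 9.32 (median 8.79) in LB, and 22 LSL hens lay above the highest LB hen. The log2 difference was 0.64 (standard error 0.0656, adjusted P-value 5.46e-12). LB hens were also more spread than LSL hens in this row, with an SD of 0.34 against 0.13.

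MIR1719 was lower in LSL, with values from 4.17 to 5.46 (median 4.76) against 4.81 to 6.00 (median 5.48) in LB. The log2 difference was -0.72 (standard error 0.0789, adjusted P-value 6.14e-11). Of the LSL hens 26 and of the LB hens 5 were below the limit that the row mean had to reach. Together with MIR103-2 and MIR23B it was tested only because of its level in LB, since the LSL means of the 3 rows (4.76, 5.03 and 5.05) were below the limit. Without a filter on low values the adjusted P-values of MIR1719, MIR103-2 and MIR23B were 8.28e-11, 0.0019 and 0.0293. MIR1453 was higher in LSL, from 6.81 to 7.52 (median 7.12) against 6.51 to 7.09 (median 6.78), with a log2 difference of 0.33 (standard error 0.0441, adjusted P-value 1.39e-08). The SD of MIR1453 was 0.17 in both lines, and 16 LSL hens exceeded every LB hen.

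MIR3528 and MIR1580 were both higher in LSL. For MIR3528 the values were 8.83 to 10.19 (median 9.80) in LSL and 8.44 to 9.89 (median 9.09) in LB, with a log2 difference of 0.64 (standard error 0.0924, adjusted P-value 1.14e-07). The LB hens were not spread evenly, since many lay on each side of a gap from 9.10 to 9.36 and none within it. Apart from the lowest hen, the LSL hens were at 9.44 or above. What separates the LB hens was not tested. For MIR1580 the values were 5.35 to 8.05 (median 6.80) in LSL and 4.66 to 6.78 (median 6.03) in LB, with a log2 difference of 0.71 (standard error 0.121, adjusted P-value 5.03e-06). Here 1 LSL hen reached 8.05 and 16 LSL hens lay above the highest LB hen. The difference of MIR1580 was 0.56 in the larger and 1.1 in the smaller set of arrays.

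The spread within a line differed between rows. In 126 of the 235 tested rows the SD was larger in LB, and the median SD was 0.219 in LSL and 0.224 in LB, above the medians of 0.182 and 0.183 of all tested rows and below those of 0.269 and 0.271 of rows with 1 probe set. MIR103-2, a gene for miR-103, was more spread in LB. LSL hens had values from 4.39 to 6.06 (median 5.03, SD 0.35) and LB hens from 4.37 to 7.18 (median 5.45, SD 0.68). The lines had the same low end, whereas 5 LB hens exceeded all LSL hens, and 19 LSL and 8 LB hens lay below the limit. The log2 difference was -0.55 (standard error 0.137, adjusted P-value 0.0016). It was -0.82 in groups of 36 (adjusted P-value 0.0023) and -0.31 in groups of 54 (adjusted P-value 0.33). MIR1553 was the opposite case, with a larger SD in LSL (0.45) than in LB (0.19). Its values were 5.57 to 7.46 (median 6.18) in LSL and 5.25 to 6.25 (median 5.82) in LB, and its log2 difference was 0.45 (standard error 0.0871, adjusted P-value 4.61e-05).

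The let-7 family, known for rising as cells differentiate, had 11 rows, of which 3 were tested, 1 was higher and 1 was lower. MIRLET7B was higher in LSL, with values from 5.25 to 6.55 (median 6.12) against 5.09 to 6.23 (median 5.79) and a log2 difference of 0.30 (standard error 0.0715, adjusted P-value 7.75e-04). MIRLET7D was lower, from 6.69 to 7.56 (median 7.21) against 6.85 to 7.91 (median 7.41), with a log2 difference of -0.23 (standard error 0.0642, adjusted P-value 0.0046), which was -0.24 in the larger and -0.13 in the smaller set of arrays (adjusted P-value 0.347). MIRLET7A-3, which lies within 10 kb of MIRLET7B, differed by 0.01 (standard error 0.0508, adjusted P-value 0.891). The neighbours of MIRLET7D, MIRLET7A-1 and MIRLET7F, were below the limit. The lines overlapped widely in both called rows.

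MIR92 belongs to the miR-17-92 cluster, which in mammals is known for promoting proliferation. Its signal was lower in LSL, from 5.13 to 6.15 (median 5.87) against 5.51 to 6.69 (median 6.08) in LB, with a log2 difference of -0.25 (standard error 0.0589, adjusted P-value 7.1e-04). It was the only 1 of 9 rows of these clusters above the limit. The rows of its neighbours MIR17, MIR18A, MIR19A, MIR19B and MIR20A had means between 2.62 and 4.70 in both lines. MIR21, known in mammals for its rise in injured and inflamed tissue, was lower in LSL (4.82 to 5.69, median 5.22) than in LB (4.89 to 5.74, median 5.38), with a log2 difference of -0.19 (standard error 0.0511, adjusted P-value 0.0038). It was -0.14 in the larger set of arrays (adjusted P-value 0.0741) and -0.34 in the smaller. Of its values 9 in LSL and 1 in LB were below the limit.

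Of 10 rows of muscle families 1 was tested, MIR133B, which was higher in LSL. Values were 5.72 to 6.41 (median 5.98) in LSL and 5.25 to 6.16 (median 5.79) in LB, with a log2 difference of 0.29 (standard error 0.0491, adjusted P-value 5.99e-06). miR-133b is known from skeletal muscle and, in mammals, from dopaminergic neurons of the midbrain. The row of MIR206, which lies beside it and is known from skeletal muscle, was at 3.33 in LSL and 3.31 in LB. Rows named for the skeletal muscle markers were not found, so muscle was not analysed here by other genes. Among 5 rows of blood cell families MIR451, a red blood cell microRNA, was the 1 tested, at 6.81 in LSL and 6.80 in LB (log2 difference 0.01, standard error 0.0425), and the mean of 3 red blood cell markers ran from 7.38 to 8.41 over LSL hens and from 7.13 to 8.31 over LB hens. The 1 tested row of 6 from epithelial families, MIR203, differed by less than 0.01 (adjusted P-value 0.999). Both tested rows of the early embryo cluster, MIR302A and MIR302C, did not pass, and no row of the liver family or of the 10 rows of skeletal and Hox cluster families reached the limit.

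The remaining called rows that were higher in LSL were MIR1800, MIR1646, MIR1768, MIR1764, MIR1746, MIR1637, MIR1772, MIR2129, MIR1723, MIR1572 and MIR1688, with log2 differences from 0.33 for MIR1800 down to 0.13 for MIR1688. For MIR1800, values were 9.37 to 10.07 (median 9.80) in LSL and 8.90 to 9.93 (median 9.42) in LB. The remaining rows that were lower were MIR1705, MIR460B, MIR147-1, MIR1780, MIR1747, MIR1773, MIR23B, MIR1639 and MIR1687, with log2 differences from -0.34 for MIR1705 to -0.14 for MIR1687. For MIR1705, values were 6.64 to 7.58 (median 7.21) in LSL and 7.00 to 8.34 (median 7.46) in LB. In all 20 of these rows the ranges of the lines overlapped, as in the other called rows.

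**Figure D2:**
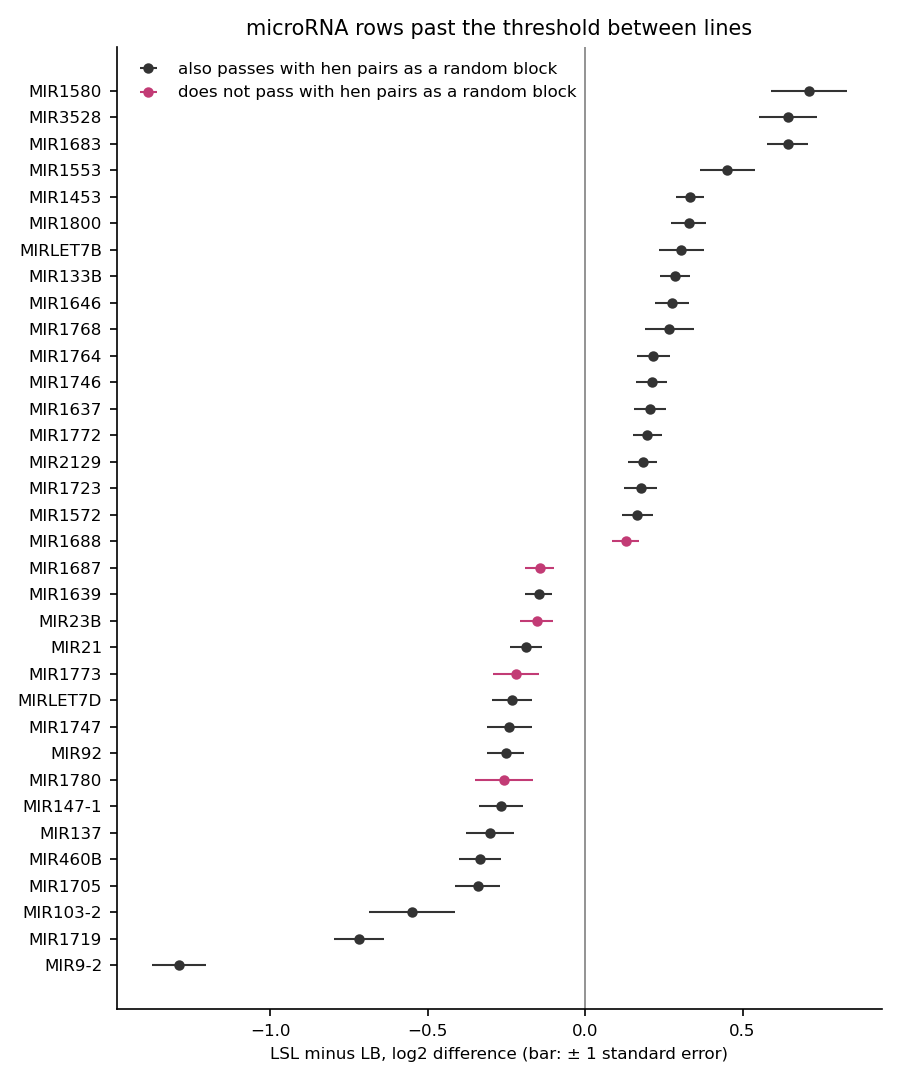
Log2 difference of LSL to LB for the 34 microRNA rows past the threshold, with bars of 1 standard error (60 hens). MIR9-2 stands at -1.29, the other 33 rows lie between -0.72 and 0.71, and the 5 rows in the second colour did not pass once hens paired by number were fitted as a random block.

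The direction of all 34 rows was the same in both sets of arrays and in both group sizes. In the larger set 28 of the 34 rows passed on their own, in the smaller set 14, and in both 13. In hens from groups of 36 alone 17 rows passed, in groups of 54 alone 20, and in both 9. Of the 235 tested microRNA rows 14% and 6.81% passed in the larger and smaller set, and 8.94% and 8.51% in groups of 36 and 54. Of all tested rows these shares were 22.5%, 7.25%, 10.8% and 11.2%, and of rows with 1 probe set 15.4%, 5.14%, 8.71% and 8.67%. The difference of MIR1746 was 0.29 in the larger set and 0.03 in the smaller (adjusted P-value 0.94), and that of MIR1764 was 0.03 in groups of 36 (adjusted P-value 0.79) and 0.40 in groups of 54 (adjusted P-value 7.18e-04). Hens 1 and 2, hens 3 and 4 and so on were of the same line and group size, and no label says whether they shared a compartment. By the study's methods 2 to 3 hens were sampled per compartment. With these pairs as a random block (correlation 0.313) 29 of the 34 rows passed, and MIR1687, MIR1688, MIR1773, MIR23B and MIR1780 had adjusted P-values between 0.056 and 0.102. With the array sets as a further block the correlation was 0.142 and all 34 passed. The sets were cut from these same values, so as a block they take up spread between hens by construction. No pair was split between the sets, although the cut did not use the pairs. What the pairs and sets share was not tested. Of the tested microRNA rows, called before or not, 16.2% passed with both blocks and 12.3% with hen pairs alone. The shares were 25.7% and 17% of all tested rows, and 16.7% and 11.8% of rows with 1 probe set.

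**Figure D3:**
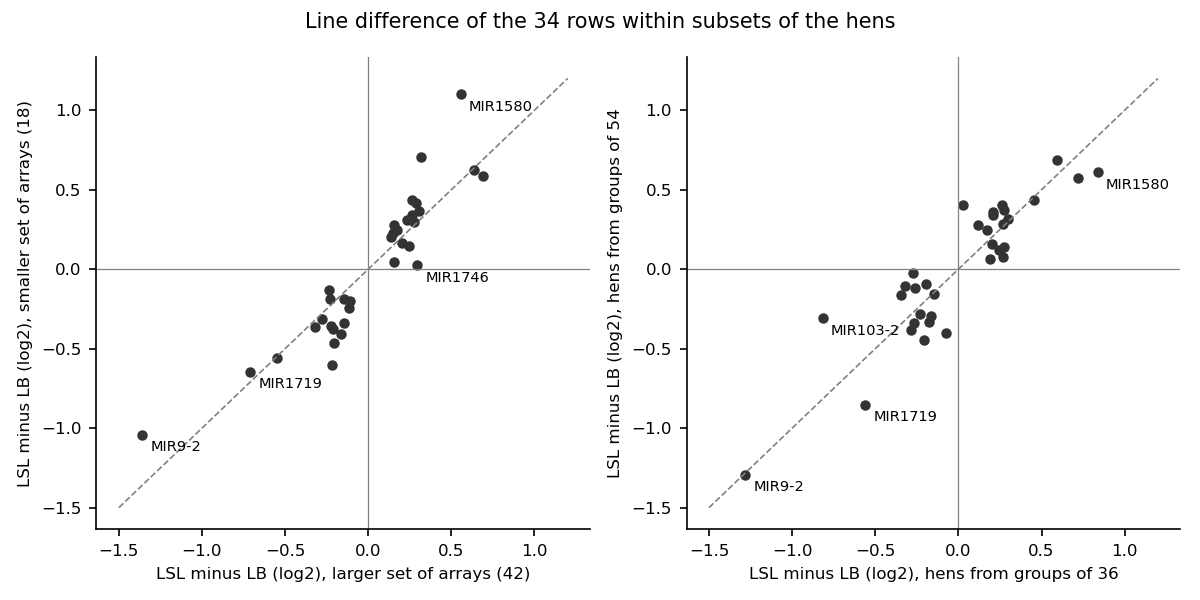
Log2 difference of LSL to LB for the 34 called microRNA rows, in the smaller against the larger set of arrays (left) and in groups of 54 against groups of 36 hens (right), with the line of equal values dashed. All points lie in the quadrants of equal sign, and MIR1580 is farther from 0 in the smaller set (1.1) than in the larger (0.56). The 34 rows were chosen on all hens, so the equal signs are a description.

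Of the 454 rows 452 were matched to a gene of the RefSeq annotation of the GRCg7b assembly, and all but 1 of these have the class miRNA there. The annotation was used for names and for which genes enclose each other, without strand. Of the tested rows 174 lay inside a protein-coding gene, 23 inside long non-coding RNA genes only and 38 in neither. In these classes 26 rows (14.9%), 6 rows (26.1%) and 2 rows (5.26%) passed between the lines, a difference that was not tested. MIR137, MIRLET7D, MIR1646, MIR1687, MIR1746 and MIR1773 were the 6 rows in long non-coding RNA genes.

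For 91 pairs, both the microRNA row and a row of the protein-coding gene around it were tested, and in 12 of the pairs the microRNA row passed. The gene passed in 3 of these 12 and in 14 of the other pairs, where 22.7% of all tested rows passed. These counts are of pairs, and some genes, such as PPARA and LARP7, entered in more than 1 pair. A gene with more than 1 tested row passed when any of them did, so the share of rows is not a like measure. In 2 of the 12 the directions were the same. MIR92 lies within the annotated span of GPC5, a cell surface proteoglycan, whose mean was 8.59 in LSL and 9.03 in LB (log2 difference -0.44, standard error 0.0524, adjusted P-value 5.82e-10). MIR1800 lies within UNC79, a part of the NALCN sodium leak channel complex, which was higher in LSL by 0.09 (standard error 0.0252, adjusted P-value 0.0037). In 1 pair the directions were opposite. PPARA, a nuclear receptor for fatty acids whose span holds MIRLET7B and MIRLET7A-3, had a log2 difference of -0.14 (standard error 0.0522, adjusted P-value 0.039).

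In the other 9 pairs the gene around a called microRNA row did not pass. MRPS2, a mitochondrial ribosomal protein gene that holds MIR3528, differed by 0.02 (standard error 0.0392), while MIR3528 differed by 0.64. PANK2, a kinase of coenzyme A synthesis that holds MIR103-2, differed by 0.07 (standard error 0.0338, adjusted P-value 0.141), against -0.55 for MIR103-2. BIN1, which bends membranes and holds MIR1553, differed by -0.04 (standard error 0.0274), and HTR2C, the serotonin 2C receptor gene around MIR460B, by -0.03 (standard error 0.0422). RPS6KB1, the S6 kinase gene around MIR21, differed by -0.06 (adjusted P-value 0.0698). The genes EEFSEC, AP3B2, MTURN and PTP4A2, around MIR1572, MIR1688, MIR1723 and MIR1780, had log2 differences between -0.04 and 0.08. Whether a microRNA row differed from its gene was not tested. No row was named for the genes around MIR9-2 (LOC100859691), MIR1683 (XPNPEP3), MIR1719 (LOC121106612), MIR1453 (MAP1LC3A) and MIR1580 (HID1). In 65 pairs neither passed.

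**Figure D4:**
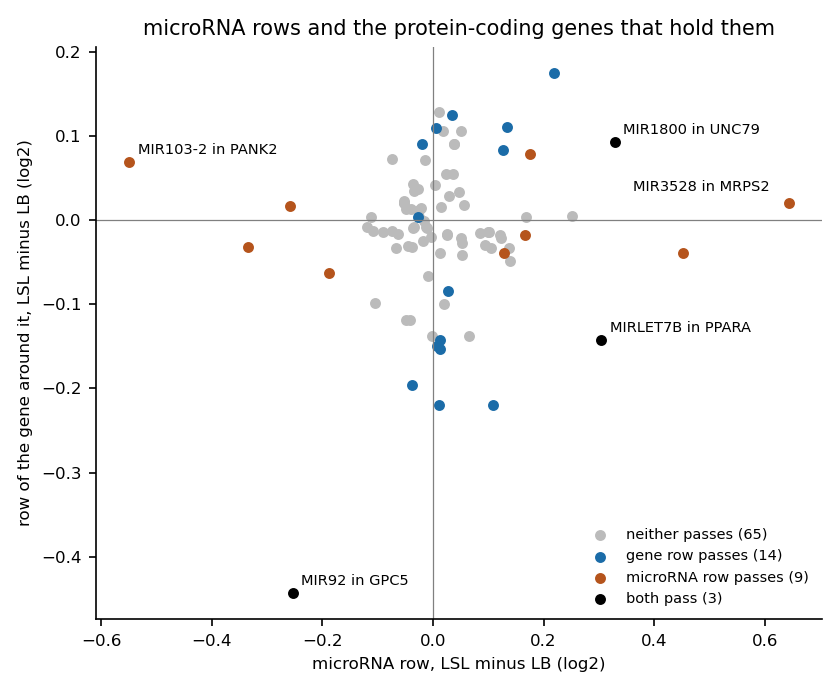
Log2 difference of LSL to LB for a microRNA row (horizontal) and for the protein-coding gene that holds it (vertical), 91 pairs. The median is shown for genes with more than 1 tested row, and a gene passed when any of its rows did. Both passed in 3 pairs, MIR92 in GPC5, MIR1800 in UNC79 and MIRLET7B in PPARA, whereas MIR3528 and MIR103-2 lie far from 0 with their genes at 0.02 and 0.07.

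Of 4 tested genes listed for the making and processing of microRNAs, none was higher and 1 was lower in LSL, where 22.7% of all tested rows passed. They were DROSHA, DGCR8, ADAR and DDX5, and no row was named for the other listed genes, DICER1 among them. DGCR8 had values of 8.04 to 8.65 (median 8.35) in LSL and 8.18 to 8.71 (median 8.50) in LB, with a log2 difference of -0.13 (standard error 0.0413, adjusted P-value 0.0145), and its adjusted P-value was 0.057 with hen pairs as a random block. DROSHA differed by -0.10 (standard error 0.04, adjusted P-value 0.0744). Of 7 tested rows for Argonaute and its partners 2 were lower, EIF2C1, the older name of AGO1, by 0.08 on the log2 scale (adjusted P-value 0.0134) and 1 of 2 tested rows of the helicase MOV10 by 0.16 (adjusted P-value 0.0486). The other MOV10 row differed by 0.10 in the opposite direction (adjusted P-value 0.153). With hen pairs, the adjusted P-values of EIF2C1 and MOV10 were 0.0611 and 0.117. None of 7 genes for the control and decay of microRNAs passed. The median log2 differences of these 3 lists were -0.06, -0.01 and 0.04.

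Genes described in mammals as targets of miR-9 or miR-124 in the neural lineage were listed as well, and 13 were tested. One of these, HES4, was matched because RefSeq gives HES1 as an older name of it. NR2E1, a nuclear receptor of neural stem cells, was lower in LSL (8.17 to 8.93, median 8.49) than in LB (8.39 to 9.00, median 8.69), with a log2 difference of -0.19 (standard error 0.0456, adjusted P-value 0.0012), and ELAVL2, a neuronal RNA-binding protein, was higher by 0.10 (standard error 0.034, adjusted P-value 0.0203). With hen pairs their adjusted P-values were 0.0081 and 0.0634. The other 11 did not pass, among them REST, the repressor of neuronal genes, with a log2 difference of 0.00 (standard error 0.0269). The median over the 13 genes was 0.00, while 22.7% of all tested rows passed.

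Of the microRNA symbols 23 named more than 1 microRNA row, 47 rows in all. In 9 of the 25 pairs of rows with the same symbol the values differed by less than 0.1 in every hen, and in the other 16 pairs the largest difference in a hen lay between 0.286 and 7.06. Among the near-equal pairs both rows of 5 were tested and none passed between the lines. No called row shared its symbol with another row. The 2 rows of MIR1790, for instance, had means of 5.35 and 10.17, and their log2 differences between the lines were -0.07 and 0.00.

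Between hens from groups of 54 and of 36, no microRNA row passed (limma, 0 of 235, 0% of all tested rows). At an unadjusted P-value under 0.05 there were 14 rows (5.96%) with limma and 13 with the unpaired t-test of the study's methods, against 5.44% of all tested rows. The smallest adjusted P-value was 0.865. The 5 rows with the smallest P-values, both rows of MIR1790 and those of MIR1607, MIR1794 and MIR1588, were all lower in groups of 54 and did not pass. For the dimmer row of MIR1790 the means were 5.52 ± 0.54 (SD, n = 16) in LSL hens from groups of 36, 5.08 ± 0.61 (n = 14) in LSL from groups of 54, 5.58 ± 0.31 (n = 14) in LB from groups of 36 and 5.21 ± 0.81 (n = 16) in LB from groups of 54. One LB hen from a group of 54 was at 2.75 in this row, and the groups overlapped. The other 4 rows had log2 differences between -0.14 and -0.11.

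Within LB hens alone 36 of 235 microRNA rows (15.3%) had an unadjusted P-value under 0.05 for group size, 10 higher and 26 lower in groups of 54, against 7.49% of all tested rows and 9.68% of rows with 1 probe set. None passed after adjustment, with a smallest adjusted P-value of 0.492. The median log2 difference in LB was -0.0405 over microRNA rows, -0.0145 over rows with 1 probe set and 0.00118 over all tested rows. Directions at this P-value were not counted for the other rows. Within LSL hens 6 microRNA rows had an unadjusted P-value under 0.05 (2.55%, against 3.23% of all tested rows and 3.37% of rows with 1 probe set). With the array sets as a block the counts were 42 rows in LB (17.9%, against 10.4% of all tested rows and 12% of rows with 1 probe set), with a smallest adjusted P-value of 0.258, and 8 in LSL (3.40%, against 4.93% and 4.3%). The interaction of layer line and group size, which tests this difference row by row, passed for no microRNA row with limma. At an unadjusted P-value under 0.05 there were 18 rows (7.66%, against 4.91% of all tested rows and 6.22% of those with 1 probe set). With the array sets as a block there were 28 microRNA rows, with 1220 of all 16332 tested rows, and when hen pairs entered as a random block there were 7, with 344 of all tested rows. For group size, over all hens or within a line, hen pairs were not fitted. Its P-values therefore take the hens of a pair as independent.

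**Figure D5:**
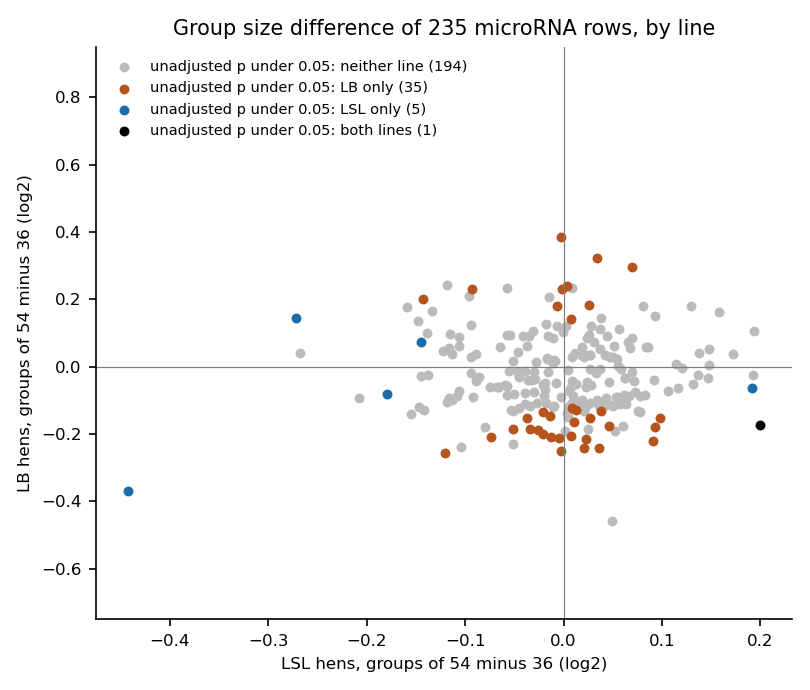
Log2 difference of groups of 54 to groups of 36 for the 235 tested microRNA rows, in LSL hens (horizontal) and LB hens (vertical). Points in colour had an unadjusted P-value under 0.05 in LB only (35 rows), in LSL only (5) or in both (1), and none passed after adjustment. Most coloured LB points lie below 0, and in LB the median over all tested rows with 1 probe set was also below 0 (-0.0145).

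The smallest P-value of the interaction was that of MIR1764. In LSL its means were 6.59 ± 0.13 (SD, n = 16) in groups of 36 and 6.79 ± 0.22 (n = 14) in groups of 54, and in LB 6.56 ± 0.14 (n = 14) and 6.38 ± 0.23 (n = 16). The difference of groups of 54 to groups of 36 was 0.20 in LSL and -0.17 in LB, with an interaction of 0.37 (standard error 0.0953, unadjusted P-value 2.36e-04, adjusted P-value 0.784). MIR1687, MIR124A-2, MIR1709 and MIR1775 followed, with interactions of 0.25, -0.42, 0.31 and -0.34 and adjusted P-values of 1. For MIR124A-2 the means were 5.46 and 5.19 in LSL and 5.08 and 5.22 in LB, in the order of groups of 36 and of 54. All 4 groups of this row overlapped.

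Among the rows below the limit, 19 would have passed between the lines without a filter, 7 higher and 12 lower in LSL. Over all 454 rows this gave 53 (11.7%), against 19.6% of all rows and 12.8% of rows with 1 probe set. The clearest, named after its values were seen, was MIR1463, with values from 4.18 to 5.69 (median 5.18) in LSL and from 3.58 to 5.10 (median 4.25) in LB and a log2 difference of 0.87 (standard error 0.0942, adjusted P-value 6.05e-11). Its mean lay below the limit, with 13 LSL and 29 LB hens under it. The other 18 differed by -0.32 to 0.40.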

How the data were processed

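The deposited log2 signals were made by the authors from whole-transcript Affymetrix chicken arrays, hybridised with biotin-labelled product of total RNA, by background correction, quantile normalisation and summary with RMA, per the labels and the study's methods. The genome build of the probe sets is not given in the sources used here. The second deposited table held the same log2 values for 20396 rows (largest difference 0). Hens were grouped by their titles. Rows with a mean below the 20th percentile of all values (5.08) were left out, and 16332 rows were tested with limma 3.58.1 in R 4.3.3, for layer line, group size and their interaction, with Benjamini-Hochberg adjustment over all of them. This stands in for the unpaired t-test of the methods, which was an alternative. The fit was tested on simulated data in which hens were independent, without pairs or array sets, so dependence between hens is not covered. For layer line 18 of 50 rows changed by 1.1-fold and 41 of 50 changed by 1.2-fold were recovered. For group size 19 and 44 of 50 were recovered at these folds. The changed rows were drawn from all tested rows, 50 per fold, whereas 3714 rows passed for layer line in the data. The median SD of the tested microRNA rows was also above that of all tested rows. These shares are therefore not the recovery for layer line in the data or for microRNA rows.

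Named were all microRNA rows past the threshold for layer line, the 5 smallest P-values for group size and for the interaction, genes around and microRNA rows within 10 kb of named rows, and up to 4 genes per direction of each list. The members, lists and array sets were chosen with earlier results of these data known. Another 3 rows, each with several symbols that included a microRNA symbol, were left out of the microRNA rows. Array precision was limited by the number of hens, and nothing in the sources says that hens of a compartment are independent. Alternatives were other filters, blocks, subsets of hens, robust regression and centring. Mature sequences of the microRNAs were not used here.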

Additional observations from a re-analysis of the deposited data

How the results depend on the processing

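The count of 34 called microRNA rows between the lines was 53 without a filter on low values (11.7%, against 19.6% of all rows). It was 16 in the smaller set of arrays (18 hens, 6.81% against 7.25% of all tested rows). In groups of 36 and of 54 (30 hens each) the counts were 21 and 20 (8.94% and 8.51%, against 10.8% and 11.2%). Of rows with 1 probe set 12.8%, 5.14%, 8.71% and 8.67% passed in these settings, where fewer hens or more rows enter by construction. Under the other alternatives the count was between 29 and 42 (12.3% to 17%). Of all tested rows 17% to 29.1% passed there, and of rows with 1 probe set 11.8% to 19.2%. They were the t-test of the methods, a limit met in at least 1 array, group size as a covariate and array sets as a block. The larger set, hen pairs with and without array sets, robust regression and centring were the rest. No called row changed direction under any alternative. Group size and the interaction gave 0 called rows under each alternative run, which included hen pairs for the interaction but not for group size. Lines and group sizes could not be compared within a hen or a pair, since each hen and each consecutive pair had 1 line and 1 group size. Rows were read by 1 probe set each, and 9 of the 34 called rows had at least 1 hen below the limit.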
